A study of Mus musculus with 13 samples.

Results

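RNA was sequenced from dHeps, damaged hepatocytes taken from the livers of wild-type (WT) mice whose livers had been injured with CCl4, after 16 days of culture. The comparison described here sets the 2 libraries of 5C-E against the 2 libraries of the solvent DMSO, so it concerns 4 of 13 libraries. Libraries were assigned to groups by their labels, and all 19884 genes with enough counts were tested. Both groups were grown in the same serum-free Hepatocyte Maintenance Medium. The full cocktail 5C holds 5 compounds, and 5C-E holds the 4 that remain when ETC-1002 is left out. These are GSK429286A, an inhibitor of the kinase ROCK, CID755673, an inhibitor of protein kinase D, forskolin, which activates adenylate cyclase and so raises cAMP, and Salidroside, a plant glycoside. ETC-1002 (bempedoic acid) activates AMPK and, once hepatocytes have joined it to coenzyme A, inhibits ATP citrate lyase. The 2 libraries of 5C serve as the group that differs from 5C-E by ETC-1002 alone, and the remaining groups of the series, each without another compound, enter only the estimate of the spread. DMSO was the only control used here, and the methods of the study call its replicates biological. The labels do not say whether the 2 libraries of a group came from separate cultures or from separate mice. The p-values thus measure only the spread between libraries of the same group, estimated over all groups of the series.

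Hepatocytes make most plasma proteins and clear drugs, bile acids and nitrogen, and in culture or after injury they tend to lose these functions together. The liver also holds macrophages (Kupffer cells), which carry the NADPH oxidase of phagocytes, and stellate cells, which on injury become contractile myofibroblasts that lay down collagen. ROCK keeps actin filaments under tension and so feeds the serum response factor (SRF), which reads the actin state of a cell and binds a short DNA element, the CArG box, in front of contractile genes. Macrophage genes depend instead on PU.1, a factor encoded by Spi1 that binds elements holding GAGGAAGT or close relatives of it.

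Because contractile, macrophage and NADPH oxidase genes are among the lists described below, 4 promoter stretches that hold one of these elements are shown, each 250 bases long and ending just before the annotated start (GRCm39, GENCODE vM39). The capitals mark the element. For the CArG box these are Tagln (chr9:45847405-45847654, minus strand), an actin-binding protein of smooth muscle, and Srf itself (chr17:46867120-46867369, minus strand). For the PU.1 element they are C1qc (chr4:136620377-136620626, minus strand), a chain of complement C1q, where the element lies on the opposite strand and reads ACTTCCTC, and Ncf4 (chr15:78128732-78128981, plus strand), a subunit of the phagocyte oxidase.
Tagln: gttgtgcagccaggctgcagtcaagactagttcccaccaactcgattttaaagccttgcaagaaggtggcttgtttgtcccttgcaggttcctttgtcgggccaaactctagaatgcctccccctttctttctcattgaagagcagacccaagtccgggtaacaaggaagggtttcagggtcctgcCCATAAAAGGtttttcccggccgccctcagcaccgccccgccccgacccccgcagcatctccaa
Srf: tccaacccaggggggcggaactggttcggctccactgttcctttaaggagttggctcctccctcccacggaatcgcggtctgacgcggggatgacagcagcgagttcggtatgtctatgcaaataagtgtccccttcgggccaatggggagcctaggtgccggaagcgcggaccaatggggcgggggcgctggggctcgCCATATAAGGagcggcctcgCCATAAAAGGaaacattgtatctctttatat
C1qc: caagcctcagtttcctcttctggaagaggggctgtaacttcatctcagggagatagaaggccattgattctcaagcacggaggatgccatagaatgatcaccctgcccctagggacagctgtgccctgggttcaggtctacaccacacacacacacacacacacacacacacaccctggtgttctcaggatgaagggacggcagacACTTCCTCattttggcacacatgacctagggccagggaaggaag
Ncf4: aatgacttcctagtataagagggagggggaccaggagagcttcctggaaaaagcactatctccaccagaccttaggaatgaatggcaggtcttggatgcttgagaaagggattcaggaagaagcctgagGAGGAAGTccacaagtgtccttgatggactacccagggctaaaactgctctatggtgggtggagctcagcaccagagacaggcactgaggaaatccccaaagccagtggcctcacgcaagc
The element began 64 bases before the start in Tagln, 51 and 31 bases in Srf, 44 bases in C1qc and 121 bases in Ncf4. A CArG box was found in 186 of 15595 such windows of tested protein-coding genes (1.19%), in 5 of 18 contractile genes (27.8%), in 2 of 32 macrophage genes (6.25%), in 0 of 7 NADPH oxidase genes, in 12 of 715 coding genes that fell in 5C-E (1.68%) and in 8 of 471 that rose (1.7%). The letters GAGGAAGT were found on either strand in 341 of the 15595 windows (2.19%), in 0 of 18 contractile genes, in 2 of 32 macrophage genes (6.25%), in 2 of 7 NADPH oxidase genes (28.6%), in 37 of 715 coding genes that fell (5.17%) and in 15 of 471 that rose (3.18%). These matches describe letters in a window and not binding.

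Total counts were 36541583 and 31129213 in DMSO libraries A and B, 36360797 and 32595945 in 5C-E and 33512657 and 30672924 in 5C, within a range of 30195867 to 45491932 over the series. The letters A and B follow the order of columns and pair nothing between groups. The counts of a pair differed by more than counting noise (chi-square over its degrees of freedom 8.01 in DMSO, 28.9 in 5C-E and 14.1 in 5C), so each library was counted as 1 sample. The difference between the 5C-E libraries, B minus A, followed the GC content of transcripts (Spearman rho 0.44 across 15595 coding genes, which are not independent replicates), against -0.03 in DMSO and 0.03 in 5C. An offset for GC content and length gave 1280 called genes in place of 1210, with 1158 shared. Across the same coding genes, the log2 difference between 5C-E and 5C also followed GC content (rho 0.38), and that between 5C-E and DMSO did so less (rho 0.13). The log2 difference between 5C and DMSO followed GC content in the opposite direction (rho -0.22). Defining hepatocyte markers were present in every library, with Alb, serum albumin, at 9711 and 8604 FPKM in DMSO and 2719 and 2122 FPKM in 5C-E. Macrophage markers were also present, and their summed level over 32 genes was 7302 and 7423 FPKM in DMSO and 1212 and 1353 FPKM in 5C-E. Stellate markers summed to 2911 and 2913 FPKM in DMSO and to 2249 and 2390.2 FPKM in 5C-E, while Cd3e, a defining T cell gene, was at a count of 0 in all 4 libraries. Markers of several cell types were thus present, and which cells carried them was not tested. In bulk samples fewer cells of a type cannot be told apart from less RNA per cell.

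The 4 compounds changed 1210 of 19884 genes tested (6.09%), of which 479 rose (2.41%) and 731 fell (3.68%), where a change is a Benjamini-Hochberg adjusted p under 0.05 in edgeR's quasi-likelihood test together with a log2 fold change beyond 1. All 1210 had FPKM values that did not overlap between the groups, as did 11645 of all genes tested (58.6%). More than 4-fold changes were found for 214 genes that rose and 350 that fell, and more than 16-fold changes for 45 and 32. The median log2 fold change over all genes tested was 0.01. Of the genes that rose, 181 had non-overlapping values, a mean of at least 5 FPKM in 5C-E and a symbol that is no predicted model, and 402 of those that fell met the same conditions with the mean taken in DMSO. The 12 largest rises and 10 of the 12 largest falls are described first. Leaving out 1 library left between 801 (without 5C-E B) and 975 called genes, and the number that rose was 295 without DMSO A, 250 without DMSO B and 271 without 5C-E B.

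**Figure D1:**
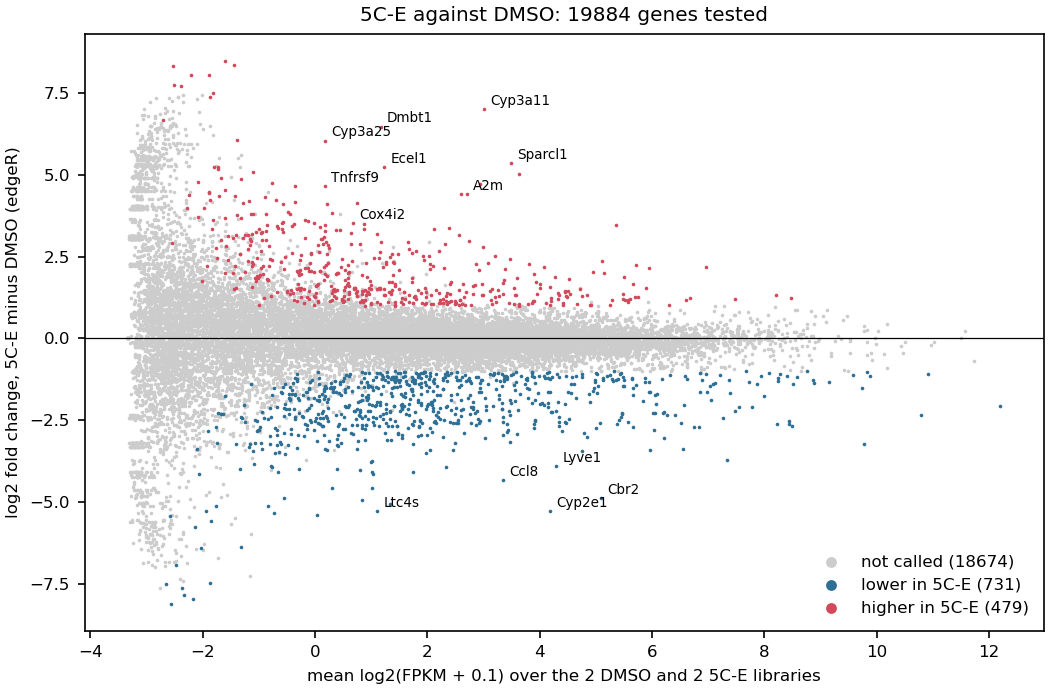
Each point is 1 of 19884 genes, with the mean log2(FPKM + 0.1) over the DMSO and 5C-E libraries on the x axis and the log2 fold change of 5C-E against DMSO on the y axis. The 479 genes that rose and the 731 that fell are coloured, and of the genes labelled by name Cyp3a11 lies highest at 7.01 and Ltc4s lowest at -5.28.

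Among the 12 largest rises, drug-metabolising enzymes made up 5. Cyp3a11, a cytochrome P450 that oxidises drugs and steroids (ENSMUSG00000056035, chromosome 5, 145791236 to 145816867, minus strand), stood at 0.708 and 0.542 FPKM in DMSO, 98.8 and 79.9 FPKM in 5C-E and 173 and 191 FPKM in 5C (log2 fold change 7.01 ± 0.34 (SE), adjusted p = 1.1e-09). Its neighbour Cyp3a25 (ENSMUSG00000029630, chromosome 5, 145913516 to 145946432, minus strand) stood at 0.0525 and 0.139 FPKM in DMSO, 8.83 and 4.95 FPKM in 5C-E and 11.5 and 8.56 FPKM in 5C (log2 fold change 6.04 ± 0.71 (SE), adjusted p = 1.8e-05). Both were close to 0 in DMSO and well above it in each treated library, without overlap. The P450 Cyp2c29 went from 1.67 and 1.14 FPKM in DMSO to 50.8 and 30.5 FPKM in 5C-E (log2 fold change 4.70 ± 0.29 (SE), adjusted p = 2.9e-08), and 5C libraries were higher still at 169.9 and 165 FPKM. Gstm3, a glutathione transferase, went from 2.77 and 1.39 FPKM to 89.5 and 60.4 FPKM (log2 fold change 5.01 ± 0.36 (SE), adjusted p = 1.3e-07), with 156 and 155 FPKM in 5C. Ces2a, a carboxylesterase that splits ester drugs, showed nearly the same level in both cocktails, at 1.22 and 1.18 FPKM in DMSO, 29.8 and 26.9 FPKM in 5C-E and 27.9 and 27.8 FPKM in 5C (log2 fold change 4.41 ± 0.20 (SE), adjusted p = 8.9e-10). These enzymes belong to families with near-identical members, and how reads shared between members were counted is not given in the sources used here, so the values of single family members are uncertain.

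The other 7 large rises were genes of secreted, membrane and mitochondrial proteins. Dmbt1, a secreted scavenger protein of epithelia, stood at 0.149 and 0.224 FPKM in DMSO, 14.1 and 22.4 FPKM in 5C-E and 5.90 and 5.45 FPKM in 5C (log2 fold change 6.47 ± 1.24 (SE), adjusted p = 0.0021). Sparcl1, a matrix-associated glycoprotein, went from 1.42 and 1.82 FPKM to 75.2 and 70.8 FPKM (log2 fold change 5.35 ± 0.25 (SE), adjusted p = 8.9e-10), and both 5C-E libraries lay above the 5C libraries at 38.3 and 27.1 FPKM. A2m, a broad protease inhibitor, likewise stood higher in 5C-E than in either other group, at 1.20 and 1.38 FPKM in DMSO, 31.8 and 29.1 FPKM in 5C-E and 6.64 and 6.68 FPKM in 5C (log2 fold change 4.42 ± 0.22 (SE), adjusted p = 1.5e-09). Ecel1, an endothelin-converting enzyme relative, had 0.281 and 0.367 FPKM in DMSO, 10.2 and 16.6 FPKM in 5C-E and 2.69 and 2.91 FPKM in 5C (log2 fold change 5.23 ± 0.44 (SE), adjusted p = 4.5e-07). Tnfrsf9 (4-1BB), a costimulatory receptor, was measured at 0.281 and 0.0707 FPKM in DMSO, 3.94 and 6.17 FPKM in 5C-E and 1.08 and 1.85 FPKM in 5C (log2 fold change 4.65 ± 0.45 (SE), adjusted p = 2.2e-06). These 4 genes were also higher than in 5C by the test of that difference, with log2 differences of 1.09, 2.12, 2.19 and 1.71. That difference was no longer called for Sparcl1 without 5C B (adjusted p 0.141), for Ecel1 without 5C-E B or 5C A (adjusted p from 0.0551 to 0.0630) and for Tnfrsf9 without 5C-E B or 5C A (adjusted p from 0.266 to 0.327). Sftpd, surfactant protein D, stood at 0.158 and 0.571 FPKM in DMSO and 4.69 and 9.34 FPKM in 5C-E (log2 fold change 4.15, adjusted p = 0.0058). Cox4i2, a cytochrome c oxidase subunit of low-oxygen conditions, was at 0.277 and 0.529 FPKM in DMSO and 4.53 and 5.71 FPKM in 5C-E (log2 fold change 3.52, adjusted p = 6.5e-05). No call was made for Sftpd without DMSO A or 5C-E B (adjusted p from 0.0504 to 0.103).

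The 12 largest falls, of which 10 are described, held enzymes of hepatocytes, contractile genes and macrophage genes. Cyp2e1, the P450 that oxidises ethanol and turns CCl4 into its toxic radical (ENSMUSG00000025479, chromosome 7, 140343652 to 140355167, plus strand), dropped from 108 and 112 FPKM in DMSO to 4.39 and 1.87 FPKM in 5C-E (log2 fold change -5.27 ± 0.36 (SE), adjusted p = 7.5e-08), whereas 5C had 75.5 and 73.1 FPKM. Akr1c6, a hydroxysteroid dehydrogenase, stood at 7.42 and 8.95 FPKM in DMSO, 0.297 and 0.286 FPKM in 5C-E and 6.96 and 7.22 FPKM in 5C (log2 fold change -4.95 ± 0.36 (SE), adjusted p = 1.3e-07). Pon1, the paraoxonase carried by high-density lipoprotein, showed the same arrangement, with 5.61 and 6.30 FPKM in DMSO, 0.417 and 0.402 FPKM in 5C-E and 5.81 and 7.08 FPKM in 5C (log2 fold change -4.0 ± 0.52 (SE), adjusted p = 4.7e-05). For these 3 genes the 5C libraries lay near DMSO and far above 5C-E, with log2 differences between 5C-E and 5C of -4.63, -4.66 and -4.04. Mug2, a murinoglobulin of plasma, was at 12.6 and 12.1 FPKM in DMSO, 0.702 and 0.903 FPKM in 5C-E and 2.39 and 2.27 FPKM in 5C (log2 fold change -4.09 ± 0.28 (SE), adjusted p = 6.7e-08).

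The remaining large falls were contractile or myeloid. Actg2, enteric smooth muscle actin, stood at 10.8 and 14.1 FPKM in DMSO, 0.388 and 0.433 FPKM in 5C-E and 2.20 and 3.58 FPKM in 5C (log2 fold change -5.06 ± 0.45 (SE), adjusted p = 8.5e-07). Cnn1, calponin, was at 6.74 and 8.57 FPKM in DMSO, 0.632 and 0.313 FPKM in 5C-E and 2.45 and 3.37 FPKM in 5C (log2 fold change -4.15 ± 0.45 (SE), adjusted p = 6.3e-06). In both, the 5C libraries lay between the other groups. Cbr2, a carbonyl reductase marking resident macrophages, fell from 166 and 180.1 FPKM to 5.86 and 7.29 FPKM (log2 fold change -4.86 ± 0.27 (SE), adjusted p = 5.6e-09). Lyve1, a hyaluronan receptor of resident macrophages and lymphatic endothelium, fell from 66 and 77.3 FPKM to 5.24 and 5.35 FPKM (log2 fold change -3.90 ± 0.24 (SE), adjusted p = 3.2e-08). Ltc4s, leukotriene C4 synthase, was at 10.8 and 12.9 FPKM in DMSO and 0.135 and 0.544 FPKM in 5C-E (log2 fold change -5.28, adjusted p = 4.4e-04). Ccl8, a chemokine, was at 42.4 and 42.8 FPKM in DMSO and 1.93 and 2.76 FPKM in 5C-E (log2 fold change -4.33, adjusted p = 1.9e-06). All 4 myeloid genes were also low in 5C, with 3.75 and 3.09 FPKM for Cbr2 and 2.89 and 3.01 FPKM for Lyve1. For Cbr2 and Lyve1 both 5C libraries lay below both 5C-E libraries, and none of the 4 genes was called between 5C-E and 5C.

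**Figure D2:**
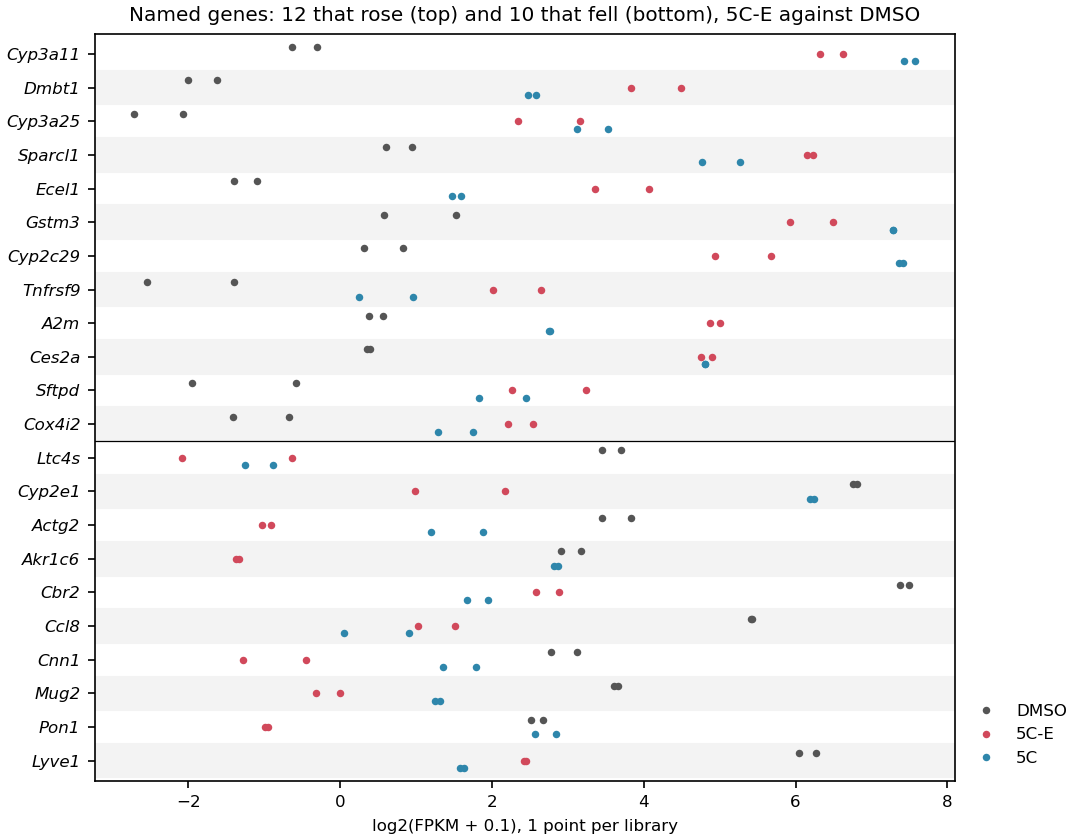
Points give log2(FPKM + 0.1) in each library of DMSO, 5C-E and 5C for the 12 genes with the largest rises (top) and 10 of the 12 with the largest falls (bottom) of 5C-E against DMSO. Cyp2e1, Akr1c6 and Pon1 have their 5C points beside DMSO, and Cbr2 and Lyve1 have them beside 5C-E.

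Of the macrophage markers, 28 of 32 tested fell and 4 were not called, with a median log2 fold change of -2.58 against 0.01 over all genes. Lyz2, lysozyme (named for its level after its values were seen), went from 2509 and 2572 FPKM to 294 and 305 FPKM (log2 fold change -3.23 ± 0.23 (SE), adjusted p = 1.3e-07). By the size of change, the leading called members were Cx3cr1, the fractalkine receptor, at 0.643 and 0.541 FPKM in DMSO and 0.0122 and 0.0136 FPKM in 5C-E (log2 fold change -5.58, adjusted p = 0.0023), then Cbr2 and Lyve1 above, and Marco, a scavenger receptor, at 17.1 and 15.9 FPKM in DMSO and 1.65 and 1.78 FPKM in 5C-E (log2 fold change -3.41, adjusted p = 7.5e-05). Cx3cr1 was near the floor in 5C-E, and its log2 fold change ran from -5.70 to -0.65 over the alternatives. Genes encoding general macrophage proteins also fell. Adgre1 (F4/80) was at 80.6 and 74.5 FPKM in DMSO and 14.5 and 14.4 FPKM in 5C-E (log2 fold change -2.57, adjusted p = 6.7e-08). Csf1r, the receptor that macrophages need to survive, was at 54 and 51.2 FPKM in DMSO and 7.77 and 8.76 FPKM in 5C-E (log2 fold change -2.81, adjusted p = 2.9e-07). Adgre1 and Csf1r are named after their values were seen. C1qc, whose promoter is printed above, stood at 326 and 357 FPKM in DMSO and 60.9 and 78.6 FPKM in 5C-E (log2 fold change -2.44, adjusted p = 4.1e-06). Spi1 itself was at 26.9 and 23.2 FPKM in DMSO and 3.84 and 5.15 FPKM in 5C-E (log2 fold change -2.62, adjusted p = 6.8e-06). The exception with a high level was Cd14, the endotoxin co-receptor, at 53.9 and 53.1 FPKM in DMSO and 51.6 and 82 FPKM in 5C-E (log2 fold change 0.17, adjusted p = 0.79). In these genes, apart from Cd14, every 5C-E library lay below every DMSO library. The same list had a median of -2.91 in 5C against DMSO, a comparison that uses the same DMSO libraries. Between 5C-E and 5C edgeR called 0 of the 32, while DESeq2 called 0 and edgeR with the offset for GC content and length called 1. At an unadjusted p under 0.05, 9 were higher and 2 lower, and the share of all genes at that p is not given here.

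The phagocyte NADPH oxidase makes superoxide. All 7 genes listed for NADPH oxidases, among them Nox4, fell (median -2.32). Cybb, the catalytic subunit gp91phox, stood at 27.6 and 26.2 FPKM in DMSO, 4.71 and 2.92 FPKM in 5C-E and 3.75 and 4.90 FPKM in 5C (log2 fold change -2.96 ± 0.26 (SE), adjusted p = 7.1e-07). The cytosolic subunits followed, with Ncf1 (p47phox) at 35.6 and 34.2 FPKM in DMSO and 5.39 and 7.19 FPKM in 5C-E (log2 fold change -2.62, adjusted p = 1.4e-06). Ncf4 (p40phox) was at 18 and 16.8 FPKM in DMSO and 3.07 and 3.32 FPKM in 5C-E (log2 fold change -2.59, adjusted p = 1.7e-05). In none of these 3 genes did the libraries of DMSO and 5C-E overlap. Nox4, an oxidase of fibroblasts and hepatocytes rather than phagocytes (named after its values were seen), was at 5.49 and 5.03 FPKM in DMSO, 2.23 and 1.71 FPKM in 5C-E and 6.27 and 4.61 FPKM in 5C (log2 fold change -1.56, adjusted p = 3.9e-04). It was the only member that also differed between 5C-E and 5C (log2 difference -1.53, adjusted p = 0.0016), and that call was lost for Nox4 without 5C-E B (adjusted p 0.0725).

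Chemokines and cytokines fell in 7 of 29 members tested (median -0.86), and the other 22 were not called. All those named here attract monocytes or other leukocytes. After Ccl8, the called member with the largest change was Ccl12, at 9.87 and 16.2 FPKM in DMSO and 1.89 and 0.798 FPKM in 5C-E (log2 fold change -3.40, adjusted p = 0.0024). Ccl6 was at 118 and 128 FPKM in DMSO and 21.4 and 20.4 FPKM in 5C-E (log2 fold change -2.70, adjusted p = 3.2e-07). Ccl9 was at 43.5 and 49.2 FPKM in DMSO and 8.99 and 8.63 FPKM in 5C-E (log2 fold change -2.54, adjusted p = 1.3e-06). Without 5C-E B the call on Ccl12 was lost (adjusted p = 0.061). Pf4, platelet factor 4 (named after its values were seen), stood at 96.2 and 112 FPKM in DMSO, 36.8 and 37.4 FPKM in 5C-E and 10.7 and 11.1 FPKM in 5C (log2 fold change -1.63, adjusted p = 0.0016). It was the single member of the list that was higher in 5C-E than in 5C (log2 difference 1.70, adjusted p = 0.0049), a difference not called for Pf4 without 5C A or 5C B (adjusted p from 0.0608 to 0.0926). Csf1, the growth factor of macrophages, had 154 and 146 FPKM in DMSO and 85.4 and 97.8 FPKM in 5C-E (log2 fold change -0.86, adjusted p = 0.0014), short of the fold threshold. Of 11 genes of MHC class II presentation, 2 fell (median -0.62). Cd86, a costimulatory ligand, was at 1.93 and 2.11 FPKM in DMSO and 0.532 and 0.418 FPKM in 5C-E (log2 fold change -2.23, adjusted p = 0.0012). Cd74, the invariant chain, was at 5.34 and 3.92 FPKM in DMSO and 2.29 and 2.21 FPKM in 5C-E (log2 fold change -1.19, adjusted p = 0.017). No call was made for Cd74 without DMSO A, 5C-E A or 5C-E B (adjusted p from 0.119 to 0.271). These genes and the macrophage markers moved in the same libraries, and the part of macrophage content in each was not tested.

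**Figure D3:**
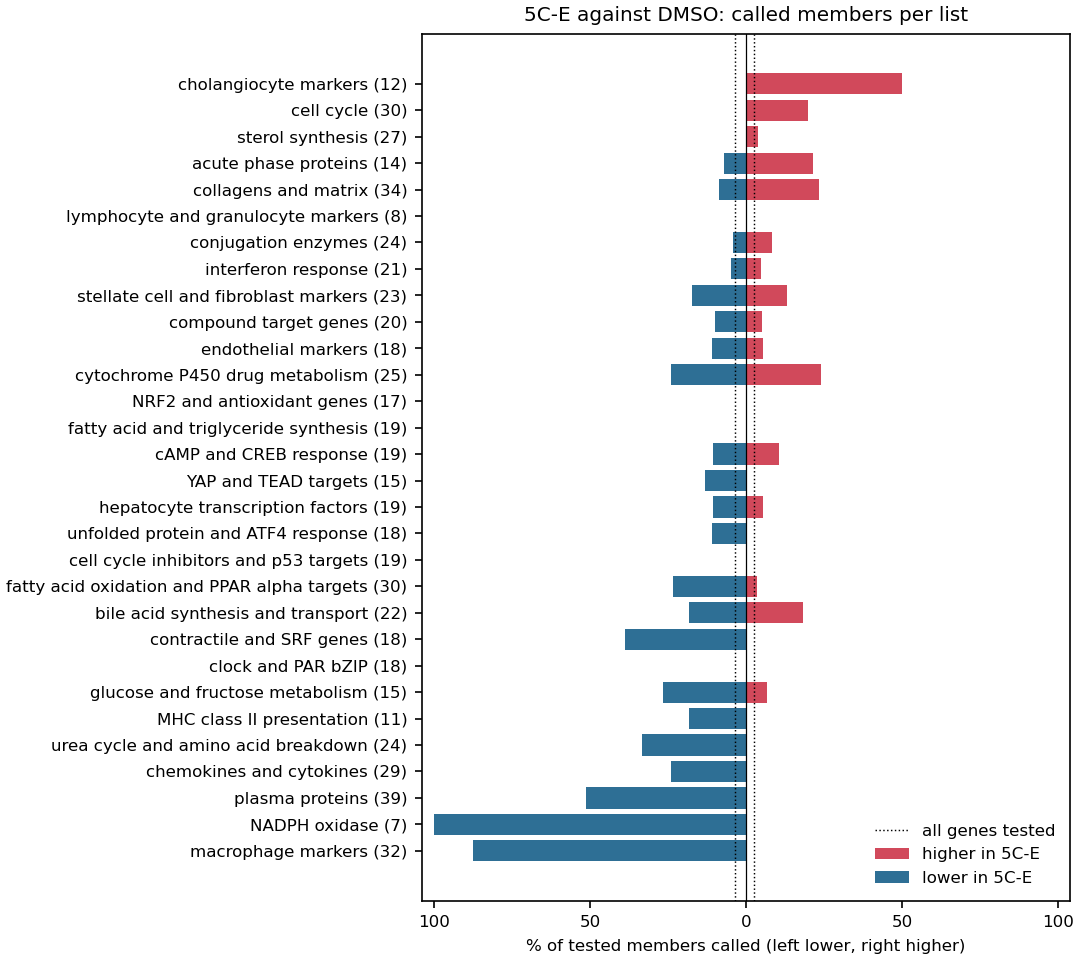
Bars give the percent of tested members of each list (number tested in parentheses) called lower (left) or higher (right) in 5C-E against DMSO, with dotted lines at the 3.68% and 2.41% of all genes tested. Macrophage markers and NADPH oxidase genes reach farthest to the left (28 of 32 and 7 of 7), and cholangiocyte markers reach farthest to the right (6 of 12).

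Plasma proteins, the main secreted products of hepatocytes, fell in 20 of 39 genes tested (median -1.14), and the other 19 were not called. Alb went from 9711 and 8604 FPKM to 2719 and 2122 FPKM (log2 fold change -2.06 ± 0.20 (SE), adjusted p = 1.5e-06), without overlap, while 5C had 9437 and 9425 FPKM. Apoa2, an apolipoprotein of high-density lipoprotein, had 262 and 261 FPKM in DMSO, 51.1 and 38.2 FPKM in 5C-E and 300.0 and 257 FPKM in 5C (log2 fold change -2.70 ± 0.26 (SE), adjusted p = 2.0e-06). Serpina3k, a serine protease inhibitor, was at 371 and 367 FPKM in DMSO, 103 and 86 FPKM in 5C-E and 263 and 259 FPKM in 5C (log2 fold change -2.11, adjusted p = 4.0e-07). Ttr, the thyroid hormone carrier transthyretin, was at 415 and 453 FPKM in DMSO, 122 and 103 FPKM in 5C-E and 321 and 329.9 FPKM in 5C (log2 fold change -2.09, adjusted p = 1.5e-06). Members with a high level and no call included Trf, transferrin, at 4147 and 4049 FPKM in DMSO and 2992 and 2661 FPKM in 5C-E (log2 fold change -0.68, adjusted p = 0.0056). Apob, the structural protein of very-low-density lipoprotein, was at 39 and 41.9 FPKM in DMSO and 25.6 and 19.5 FPKM in 5C-E (log2 fold change -0.99, adjusted p = 0.0032). C3, complement factor 3, was at 548 and 503 FPKM in DMSO and 976 and 913 FPKM in 5C-E (log2 fold change 0.70, adjusted p = 0.006). Fgb, a fibrinogen chain, was at 127 and 138 FPKM in DMSO and 253 and 231 FPKM in 5C-E (log2 fold change 0.73, adjusted p = 0.0092). Without 5C-E A, Apob passed the fold threshold (-1.15, adjusted p = 0.011). The list was thus not uniform, since fibrinogen and C3 had higher FPKM in both 5C-E libraries and Alb, Apoa2 and Ttr lower. Against 5C, 18 of the 39 were lower in 5C-E, among them Alb (log2 difference -2.03 ± 0.20 (SE), adjusted p = 9.4e-06) and Apoa2 (log2 difference -2.71 ± 0.26 (SE), adjusted p = 9.5e-06).

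Acute phase proteins, which the liver secretes on inflammation, rose in 3 and fell in 1 of 14 members tested (median 0.45). Orm2, an orosomucoid, stood at 1.38 and 0.745 FPKM in DMSO, 10.9 and 7.23 FPKM in 5C-E and 15.6 and 12.9 FPKM in 5C (log2 fold change 2.93, adjusted p = 2.1e-04). Orm1, its relative, stood at 22.1 and 22.6 FPKM in DMSO, 91.1 and 91.9 FPKM in 5C-E and 96.5 and 84.8 FPKM in 5C (log2 fold change 1.89, adjusted p = 7.7e-05). Socs3, an inhibitor of cytokine signalling induced by interleukin 6, was at 12 and 11.4 FPKM in DMSO, 38.4 and 52.9 FPKM in 5C-E and 19 and 19.9 FPKM in 5C (log2 fold change 1.82, adjusted p = 2.0e-04). Saa3, a serum amyloid A made largely by macrophages, fell, at 107 and 105 FPKM in DMSO, 29.8 and 32.4 FPKM in 5C-E and 13.2 and 21.1 FPKM in 5C (log2 fold change -1.91, adjusted p = 0.0027). Lcn2, lipocalin 2, had 185 and 209 FPKM in DMSO and 348 and 373 FPKM in 5C-E (log2 fold change 0.73, adjusted p = 0.031) and was not called. Against 5C, Socs3 was higher in 5C-E (log2 difference 1.16, adjusted p = 0.022), and 3 members were lower. The number lower was 1 without 5C-E A or 5C-E B and 0 without 5C B. The difference was not called for Socs3 without 5C-E B, 5C A or 5C B (adjusted p from 0.154 to 0.385), and it fell short of the fold threshold with the offset for GC content and length.

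Cytochrome P450 genes of drug metabolism split evenly, with 6 of 25 higher and 6 lower in 5C-E (median -0.07), and without 5C-E B the number lower was 3. Beside Cyp3a11, Cyp3a25 and Cyp2c29, the list rose in Cyp2c55, at 0.110 and 0.0965 FPKM in DMSO, 2.99 and 2.84 FPKM in 5C-E and 2.70 and 2.89 FPKM in 5C (log2 fold change 4.65, adjusted p = 1.8e-06). Cyp2b10, the P450 used as a readout of the nuclear receptor CAR, was higher as well, at 9.90 and 8.70 FPKM in DMSO, 30.7 and 21.6 FPKM in 5C-E and 88.3 and 78 FPKM in 5C (log2 fold change 1.34 ± 0.22 (SE), adjusted p = 4.1e-04), and is named after its values were seen. On the other side, Cyp2c38 was at 2.11 and 0.962 FPKM in DMSO, 0.191 and 0.107 FPKM in 5C-E and 4.96 and 4.38 FPKM in 5C (log2 fold change -3.49, adjusted p = 2.4e-04). Cyp2c37 was at 0.899 and 0.985 FPKM in DMSO, 0.211 and 0.101 FPKM in 5C-E and 4.79 and 5.26 FPKM in 5C (log2 fold change -2.71, adjusted p = 0.0085), and the call on Cyp2c37 was lost without 5C-E B (adjusted p = 0.13). Cyp2b9, with counts of 13 and 15 in DMSO and 0 in both 5C-E libraries, was called at an adjusted p of 0.047 and was at least 5.31-fold lower against a floor of 3 counts per library. That call was lost for Cyp2b9 without any 1 of the 4 libraries (adjusted p from 0.109 to 0.247). Por, the reductase that supplies P450 enzymes with electrons, had 41 and 41.2 FPKM in DMSO and 60.9 and 79.2 FPKM in 5C-E (log2 fold change 0.62, adjusted p = 0.031), and Cyp2a12 had 12.1 and 11.1 FPKM in DMSO and 8.47 and 6.05 FPKM in 5C-E (log2 fold change -0.82, adjusted p = 0.02). Without 5C-E A, Cyp2a12 passed the fold threshold (-1.05).

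Set against 5C, 15 of the 25 P450 genes had a lower call in 5C-E, a number that was 13 once GC content and length were offset. The median against DMSO was 1.52 in 5C, in a comparison with the same DMSO libraries. Cyp3a11 (log2 difference -1.10, adjusted p = 0.025), Cyp2b10 (log2 difference -1.74, adjusted p = 1.2e-04) and Cyp2c29 (log2 difference -2.11, adjusted p = 8.7e-05) were thus higher in 5C-E than in DMSO and higher again in 5C. Between the cocktails the call was lost for Cyp3a11 without any 1 of the 4 cocktail libraries (adjusted p from 0.0764 to 0.406), and it was lost with the offset for GC content and length. By contrast Cyp2e1 (log2 difference -4.63 ± 0.35 (SE), adjusted p = 1.4e-06), Cyp2c38 (log2 difference -5.02, adjusted p = 4.0e-05) and Cyp2c37 (log2 difference -5.05, adjusted p = 9.5e-05) were lower in 5C-E than in either other group. Cyp2e1 in 5C was not called against DMSO (log2 fold change -0.64). Predicted models aside, 4 genes averaging at least 5 FPKM in any of the 3 groups lay above DMSO and below 5C in 5C-E. They were Cyp3a11, Cyp2c29, Cyp2b10 and Aqp8, a water channel of bile canaliculi.

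Conjugation enzymes, which attach glutathione, sulfate or glucuronate to drugs, had 2 members higher and 1 lower of 24 (median 0.20). Beside Gstm3, Gsta2 stood at 0.186 and 0.572 FPKM in DMSO, 1.96 and 1.72 FPKM in 5C-E and 2.89 and 3.10 FPKM in 5C (log2 fold change 2.15, adjusted p = 0.027), and the member that fell, Gsta3, at 59.1 and 61.7 FPKM in DMSO, 35.1 and 27.2 FPKM in 5C-E and 67.6 and 57.6 FPKM in 5C (log2 fold change -1.10, adjusted p = 7.5e-04). Gstm1, an abundant transferase, had 144 and 125 FPKM in DMSO and 283 and 237 FPKM in 5C-E (log2 fold change 0.81, adjusted p = 0.023) and missed the fold threshold. The call was lost for Gsta2 without DMSO A, 5C-E A or 5C-E B (adjusted p from 0.0878 to 0.319) and for Gsta3 without 5C-E B (log2 fold change -0.93). Against 5C, 6 were lower, a number that was 1 without 5C-E B and 3 without 5C A.

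Transcription factors of hepatocyte identity were mostly not called, with 1 higher and 2 lower of 19 (median -0.20). Hnf4a, a central regulator of hepatocyte genes, stood at 19.8 and 19.8 FPKM in DMSO, 16.7 and 17.3 FPKM in 5C-E and 21.5 and 18.8 FPKM in 5C (log2 fold change -0.36 ± 0.17 (SE), adjusted p = 0.29). Its DMSO libraries lay above its 5C-E libraries, by less than the fold threshold. Cebpa, which drives many liver enzymes, fell, at 37.6 and 39.2 FPKM in DMSO, 11 and 16.1 FPKM in 5C-E and 19.8 and 19.5 FPKM in 5C (log2 fold change -1.65 ± 0.19 (SE), adjusted p = 1.5e-05). Foxa3, a pioneer factor, was at 7.58 and 6.24 FPKM in DMSO and 3.17 and 3.38 FPKM in 5C-E (log2 fold change -1.22, adjusted p = 0.0094). Nr0b2 (SHP), a corepressor induced by bile acids, was at 0.0966 and 0.510 FPKM in DMSO and 1.82 and 2.11 FPKM in 5C-E (log2 fold change 2.56, adjusted p = 0.026). Nr1h3, the oxysterol receptor LXR alpha, had 13 and 13.2 FPKM in DMSO and 6.43 and 8.05 FPKM in 5C-E (log2 fold change -1.0, adjusted p = 0.0084), just at the fold threshold, and was called without 5C-E B (-1.17). Calls were lost for Foxa3 without DMSO A, 5C-E A or 5C-E B (adjusted p from 0.0733 to 0.137) and for Nr0b2 without DMSO A, 5C-E A or 5C-E B (adjusted p from 0.0721 to 0.286). Cebpa was called whichever single library was left out.

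Urea cycle and amino acid breakdown genes fell in 8 of 24 members (median -0.75), and in 5 without DMSO A. Hpd, which breaks down tyrosine, was at 36 and 28.3 FPKM in DMSO, 6.33 and 3.11 FPKM in 5C-E and 40.6 and 34.9 FPKM in 5C (log2 fold change -2.91 ± 0.30 (SE), adjusted p = 3.6e-06). Tat, tyrosine aminotransferase, stood at 81.3 and 75.4 FPKM in DMSO, 12.8 and 13.1 FPKM in 5C-E and 33.6 and 32.3 FPKM in 5C (log2 fold change -2.74, adjusted p = 1.5e-07). Gnmt, which methylates glycine, was at 107 and 92.1 FPKM in DMSO, 21.9 and 13.8 FPKM in 5C-E and 114 and 139 FPKM in 5C (log2 fold change -2.62, adjusted p = 1.5e-06). Tdo2, which opens the tryptophan ring, was at 14.6 and 17.3 FPKM in DMSO, 3.58 and 2.29 FPKM in 5C-E and 16.5 and 14.8 FPKM in 5C (log2 fold change -2.58, adjusted p = 2.7e-06). In all 4 genes the 5C-E libraries were the lowest of the 6, and each was lower in 5C-E than in 5C (log2 differences from -3.06 to -1.42). Ass1, of the urea cycle, had 105 and 91.3 FPKM in DMSO and 61.7 and 58.5 FPKM in 5C-E (log2 fold change -0.85, adjusted p = 0.0038). Glul, glutamine synthetase, had 56.2 and 54.9 FPKM in DMSO and 40.0 and 38.9 FPKM in 5C-E (log2 fold change -0.64, adjusted p = 0.014).

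Glucose and fructose metabolism had 1 gene higher and 4 lower of 15 (median -0.58). Gys2, liver glycogen synthase, stood at 5.97 and 4.93 FPKM in DMSO, 1.31 and 0.853 FPKM in 5C-E and 4.35 and 5.33 FPKM in 5C (log2 fold change -2.47, adjusted p = 8.7e-05). Igfbp1, a secreted binder of insulin-like growth factors, was at 1425 and 1311 FPKM in DMSO, 536 and 517 FPKM in 5C-E and 1157 and 992 FPKM in 5C (log2 fold change -1.52, adjusted p = 4.3e-05). G6pc, which releases free glucose, was low in all libraries, at 1.09 and 2.18 FPKM in DMSO and 0.409 and 0.609 FPKM in 5C-E (log2 fold change -1.82, adjusted p = 0.047), and its call was lost without any 1 of the 4 libraries (adjusted p from 0.0567 to 0.517). Pck1, the first committed enzyme of glucose synthesis and a classical cAMP target, rose, at 1.63 and 1.57 FPKM in DMSO, 6.61 and 6.15 FPKM in 5C-E and 3.50 and 2.82 FPKM in 5C (log2 fold change 1.85 ± 0.29 (SE), adjusted p = 3.5e-04). Fbp1, of the same pathway, had 49.8 and 41.6 FPKM in DMSO, 26.1 and 25 FPKM in 5C-E and 73.2 and 69.9 FPKM in 5C (log2 fold change -0.98, adjusted p = 5.7e-04) and was called without DMSO B (-1.11). Against 5C, 6 of the 15 were lower and 3 without 5C-E B.

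Bile acid genes moved both ways, with 4 higher and 4 lower of 22 (median -0.46). Slco1a4, an organic anion importer, rose and was at 0.162 and 0.1 FPKM in DMSO, 3.29 and 2.02 FPKM in 5C-E and 3.35 and 2.52 FPKM in 5C (log2 fold change 4.18, adjusted p = 8.0e-07). Abcb11, the bile salt export pump, was at 0.377 and 0.312 FPKM in DMSO, 2.47 and 2.33 FPKM in 5C-E and 1.93 and 2.49 FPKM in 5C (log2 fold change 2.65, adjusted p = 1.7e-05). Slc51b, an exporter subunit, was at 0.0771 and 0.271 FPKM in DMSO and 1.90 and 2.33 FPKM in 5C-E (log2 fold change 3.45, adjusted p = 0.02). Cyp7b1, of the alternative synthesis route, was at 1.62 and 1.45 FPKM in DMSO, 5.39 and 4.33 FPKM in 5C-E and 5.41 and 4.67 FPKM in 5C (log2 fold change 1.52, adjusted p = 0.0019). The genes that fell were importers and an activating enzyme. Slco2b1 stood at 1.57 and 1.84 FPKM in DMSO, 0.143 and 0.185 FPKM in 5C-E and 0.545 and 0.497 FPKM in 5C (log2 fold change -3.52, adjusted p = 1.9e-05). Slc10a1 (NTCP), the main bile salt importer, was at 2.30 and 1.69 FPKM in DMSO, 0.424 and 0.334 FPKM in 5C-E and 3.21 and 3.14 FPKM in 5C (log2 fold change -2.53, adjusted p = 0.006). Slco1b2 was at 3.84 and 4.08 FPKM in DMSO, 2.18 and 1.29 FPKM in 5C-E and 14.3 and 11.9 FPKM in 5C (log2 fold change -1.33, adjusted p = 0.035). Slc27a5, which joins bile acids to coenzyme A, was at 7.90 and 9.37 FPKM in DMSO, 4.10 and 4.42 FPKM in 5C-E and 15 and 15 FPKM in 5C (log2 fold change -1.16, adjusted p = 0.0027). Cyp27a1 had 17.8 and 16.5 FPKM in DMSO and 9.99 and 10.7 FPKM in 5C-E (log2 fold change -0.87, adjusted p = 0.0056). Calls were lost for Slc51b without any 1 of the 4 libraries (adjusted p from 0.0576 to 0.238), for Slc10a1 without DMSO A, 5C-E A or 5C-E B (adjusted p from 0.0524 to 0.0903), for Slco1b2 without any 1 of the 4 libraries (adjusted p from 0.0517 to 0.370) and for Slc27a5 without DMSO B or 5C-E A (adjusted p from 0.0518 to 0.0523), and the number that fell was 2 without DMSO A, DMSO B or 5C-E B and 1 without 5C-E A. Against 5C, 6 members were lower in 5C-E, among them Slc10a1 with a log2 difference of -3.13 and Slco1b2 with -2.98. That difference was not called for Slc10a1 without 5C-E B (adjusted p 0.115).

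**Figure D4:**
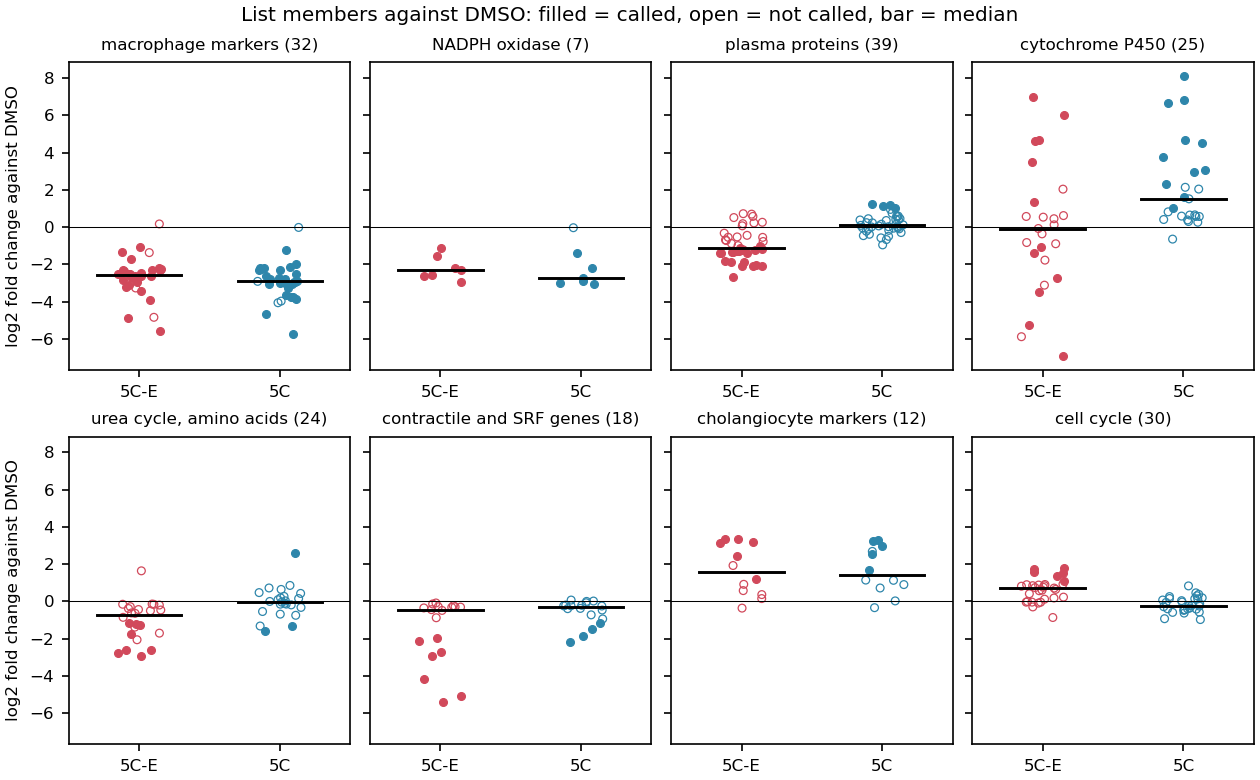
Each point is the log2 fold change of 1 list member against DMSO, for 5C-E and for 5C, filled where called, with a bar at the median (number of members in parentheses). Macrophage markers have medians of -2.58 and -2.91 in 5C-E and 5C, plasma proteins of -1.14 and 0.13, and P450 genes of -0.07 and 1.52, all against the same DMSO libraries.

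Genes of fatty acid oxidation and targets of PPAR alpha fell in 7 and rose in 1 of 30 (median -0.27), with 4 lower without 5C-E A and 3 without 5C-E B. Cyp4a14, an omega-hydroxylase that is a sensitive PPAR alpha target, had counts of 36 and 18 in DMSO and 0 in both 5C-E libraries (adjusted p = 1.4e-04), at least 9.91-fold lower against a floor of 3 counts per library, while 5C had 11.2 and 10.1 FPKM. Its relative Cyp4a10 was at 0.7 and 0.973 FPKM in DMSO, 0.351 and 0.203 FPKM in 5C-E and 13.1 and 13.3 FPKM in 5C (log2 fold change -1.71, adjusted p = 0.04). Fabp1, the liver fatty acid carrier, was at 5.63 and 5.92 FPKM in DMSO, 2.78 and 1.77 FPKM in 5C-E and 42.2 and 28 FPKM in 5C (log2 fold change -1.48, adjusted p = 0.0056). These 3 genes were above DMSO in 5C and below it in 5C-E, and all 3 were lower in 5C-E than in 5C, with log2 differences of -5.63 for Cyp4a10 and -4.0 for Fabp1. Fgf21, a fasting hormone, stood at 2.90 and 3.51 FPKM in DMSO and 1.33 and 1.03 FPKM in 5C-E (log2 fold change -1.58, adjusted p = 0.043). Acot1, a thioesterase, rose and was at 5.46 and 6.25 FPKM in DMSO and 11.5 and 15.2 FPKM in 5C-E (log2 fold change 1.04, adjusted p = 0.0013). The call was lost for Cyp4a10 without any 1 of the 4 libraries (adjusted p from 0.0869 to 0.335), for Fabp1 without 5C-E B (adjusted p 0.112), for Fgf21 without any 1 of the 4 libraries (adjusted p from 0.144 to 0.318) and for Acot1 without DMSO A or 5C-E B (log2 fold changes from 0.83 to 0.99). With the offset for GC content and length, Acot1 also fell short of the fold threshold.

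Sterol synthesis genes, driven by SREBP2 when cell cholesterol is low, had a median of 0.49, with 1 of 27 called. It was called higher, and the number higher was 0 with the offset for GC content and length. Without 5C-E B, 0 were higher and 1 was lower. Srebf2, which encodes SREBP2, had 23.7 and 24.8 FPKM in DMSO, 39 and 47.2 FPKM in 5C-E and 24.9 and 22.7 FPKM in 5C (log2 fold change 0.69, adjusted p = 0.014). Cyp51, a demethylase of the pathway, had 25 and 24.4 FPKM in DMSO and 42.6 and 45.1 FPKM in 5C-E (log2 fold change 0.68, adjusted p = 0.014). Neither Srebf2 nor Cyp51 passed the fold threshold. Of the 27, 16 had an unadjusted p under 0.05, and the share of all genes at that p is not given here.

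Genes that act on or are acted on by the compounds changed in 3 of 20 tested, with a median of 0.01. Slc27a2, the acyl-CoA synthetase that activates ETC-1002 in hepatocytes, was at 11.4 and 11.8 FPKM in DMSO, 6.51 and 4.08 FPKM in 5C-E and 17 and 13.8 FPKM in 5C (log2 fold change -1.27, adjusted p = 0.0021), and its call was lost without 5C-E B (-0.97, adjusted p = 0.066). Adcy7, an adenylate cyclase of myeloid cells, stood at 5.17 and 4.85 FPKM in DMSO, 1.64 and 1.64 FPKM in 5C-E and 1.25 and 1.18 FPKM in 5C (log2 fold change -1.76, adjusted p = 4.6e-04). Adcy2 was at 0.876 and 0.747 FPKM in DMSO and 2.67 and 1.74 FPKM in 5C-E (log2 fold change 1.29, adjusted p = 0.027). Among cAMP and CREB response genes, 2 rose and 2 fell of 19 (median -0.18). The cAMP phosphodiesterases Pde4b and Pde4d rose. Pde4b was at 0.616 and 0.526 FPKM in DMSO, 2.06 and 2.98 FPKM in 5C-E and 0.965 and 1.19 FPKM in 5C (log2 fold change 1.99, adjusted p = 3.8e-04). Pde4d was at 0.273 and 0.187 FPKM in DMSO and 0.771 and 0.985 FPKM in 5C-E (log2 fold change 1.78, adjusted p = 0.0067). Dusp1, a phosphatase of MAP kinases, was at 72.2 and 69.6 FPKM in DMSO, 26.6 and 30.1 FPKM in 5C-E and 40.1 and 43.4 FPKM in 5C (log2 fold change -1.47, adjusted p = 2.2e-05). Areg, the growth factor amphiregulin, matched by gene identifier, was at 6.01 and 2.40 FPKM in DMSO and 0.746 and 0.958 FPKM in 5C-E (log2 fold change -2.45, adjusted p = 0.0041). Calls were lost for Adcy2 without DMSO A, DMSO B or 5C-E A (adjusted p from 0.120 to 0.262), for Pde4d without DMSO B or 5C-E B (adjusted p from 0.0795 to 0.129) and for Areg without DMSO A or 5C-E A (adjusted p from 0.0736 to 0.147).

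Contractile and SRF genes fell in 7 of 18 tested (median -0.46). Myh11, smooth muscle myosin, stood at 4.63 and 4.96 FPKM in DMSO, 0.184 and 0.0645 FPKM in 5C-E and 1.27 and 1.47 FPKM in 5C (log2 fold change -5.39 ± 0.43 (SE), adjusted p = 3.2e-07), and after Actg2 and Cnn1 came Tagln, at 2.38 and 3.08 FPKM in DMSO, 0.594 and 0.185 FPKM in 5C-E and 2.01 and 2.42 FPKM in 5C (log2 fold change -2.93 ± 0.54 (SE), adjusted p = 0.0014). Acta2, alpha smooth muscle actin and the usual marker of myofibroblasts (named after its values were seen), had 255 and 299.9 FPKM in DMSO, 50.7 and 43.3 FPKM in 5C-E and 233 and 215 FPKM in 5C (log2 fold change -2.71 ± 0.22 (SE), adjusted p = 3.2e-07). For these genes the 5C-E libraries were the lowest of the 6 in FPKM and separated from both other groups. The difference of Tagln from 5C was not called without 5C-E B (log2 difference -1.97) or without 5C B (-2.37). Cytoplasmic actin, Actb, was not called, at 1037 and 1078 FPKM in DMSO and 838 and 886 FPKM in 5C-E (log2 fold change -0.44, adjusted p = 0.19), and had lower FPKM in both 5C-E libraries than in either DMSO library. Srf itself was not called and had 13.3 and 13.2 FPKM in DMSO and 11.9 and 13 FPKM in 5C-E (log2 fold change -0.23, adjusted p = 0.58). Of the 5 contractile genes with a CArG box in this window, Tagln fell and Actb, Srf, Cnn2 and Vcl were not called. Against 5C, 6 of 18 were lower in 5C-E and 1 was higher, with Myh11 at log2 difference -3.51, adjusted p = 7.6e-05 and Acta2 at log2 difference -2.32, adjusted p = 6.1e-06. The member higher than in 5C was Des, desmin, at 30.9 and 33.5 FPKM in DMSO, 29.8 and 37.5 FPKM in 5C-E and 15.5 and 15.4 FPKM in 5C (log2 difference 1.05, adjusted p = 0.015), named after its values were seen. It was not called for Des without 5C-E B, 5C A or 5C B (adjusted p from 0.137 to 0.279), and it fell short of the fold threshold with the offset for GC content and length. Of 15 targets of YAP and TEAD, which also read cell tension, 2 fell (median -0.19). Ccn2 (CTGF) went from 273 and 298 FPKM to 97.3 and 101 FPKM (log2 fold change -1.67 ± 0.17 (SE), adjusted p = 4.3e-06). Ccn1 (CYR61) stood at 265 and 286 FPKM in DMSO and 149.8 and 153 FPKM in 5C-E (log2 fold change -1.01, adjusted p = 7.9e-04), a call lost without DMSO B or 5C-E A (-0.95 in both).

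Stellate cell and fibroblast markers did not move as a block, with 3 higher and 4 lower of 23 (median 0.06). Reln, reelin, was at 3.64 and 2.62 FPKM in DMSO, 0.516 and 0.388 FPKM in 5C-E and 2.47 and 2.26 FPKM in 5C (log2 fold change -2.94, adjusted p = 8.3e-07). Col14a1, a fibril-associated collagen, was at 8.25 and 6.96 FPKM in DMSO, 1.39 and 1.32 FPKM in 5C-E and 2.42 and 2.95 FPKM in 5C (log2 fold change -2.63, adjusted p = 6.4e-07). Thy1 was at 12.8 and 12.3 FPKM in DMSO and 3.75 and 5.21 FPKM in 5C-E (log2 fold change -1.63, adjusted p = 1.1e-04). Ecm1 was at 427 and 443 FPKM in DMSO and 199 and 219.6 FPKM in 5C-E (log2 fold change -1.20, adjusted p = 0.0017). These 4 fell. On the other side Rgs5, a pericyte regulator of G-protein signalling, stood at 0.409 and 0.226 FPKM in DMSO and 2.68 and 2.43 FPKM in 5C-E (log2 fold change 2.85, adjusted p = 1.4e-05). Pdgfra, a receptor of fibroblasts, was at 11.5 and 11.1 FPKM in DMSO, 32.2 and 27.1 FPKM in 5C-E and 31.2 and 30.2 FPKM in 5C (log2 fold change 1.24, adjusted p = 0.001). Cygb, cytoglobin of quiescent stellate cells, was at 5.57 and 5.45 FPKM in DMSO, 14.4 and 13.1 FPKM in 5C-E and 14.9 and 15.2 FPKM in 5C (log2 fold change 1.17, adjusted p = 3.9e-04). The abundant members Vim and Dcn were not called. Vim was at 661 and 669 FPKM in DMSO and 496 and 524 FPKM in 5C-E (log2 fold change -0.53, adjusted p = 0.12). Dcn was at 328 and 319 FPKM in DMSO and 294 and 208 FPKM in 5C-E (log2 fold change -0.51, adjusted p = 0.12).

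Collagens and matrix genes rose in 8 and fell in 3 of 34 (median 0.32). Col3a1, a fibrillar collagen, had 174 and 181 FPKM in DMSO, 458 and 531 FPKM in 5C-E and 246 and 240.1 FPKM in 5C (log2 fold change 1.33 ± 0.15 (SE), adjusted p = 1.1e-05). Col15a1, of basement membranes, was at 1.28 and 1.25 FPKM in DMSO, 6.85 and 10.9 FPKM in 5C-E and 3.92 and 3.71 FPKM in 5C (log2 fold change 2.67, adjusted p = 4.8e-07). Eln, elastin, was at 1.07 and 0.871 FPKM in DMSO, 4.68 and 5.12 FPKM in 5C-E and 2.86 and 2.24 FPKM in 5C (log2 fold change 2.19, adjusted p = 7.4e-06). Col12a1 was at 12.7 and 11.7 FPKM in DMSO, 32.7 and 34.3 FPKM in 5C-E and 18.9 and 18.6 FPKM in 5C (log2 fold change 1.31, adjusted p = 2.6e-05). Their 5C-E libraries were the highest of the 6. Col1a1, the main fibrillar collagen, had 383 and 399.8 FPKM in DMSO, 706 and 869.9 FPKM in 5C-E and 448 and 467 FPKM in 5C (log2 fold change 0.87, adjusted p = 0.0044), under the fold threshold, and was called without 5C-E A (1.05). In the other direction, Col8a1 stood at 38.6 and 38 FPKM in DMSO, 9.39 and 8.37 FPKM in 5C-E and 20.3 and 21.1 FPKM in 5C (log2 fold change -2.25, adjusted p = 4.9e-06). Thbs1, thrombospondin, was at 217 and 208 FPKM in DMSO, 84.8 and 65.4 FPKM in 5C-E and 214 and 234 FPKM in 5C (log2 fold change -1.65, adjusted p = 5.2e-04). Timp2, a protease inhibitor, was at 696 and 680.5 FPKM in DMSO, 339 and 291 FPKM in 5C-E and 425 and 439 FPKM in 5C (log2 fold change -1.27, adjusted p = 2.5e-05). Acta2 and Myh11 thus lay below DMSO and Col3a1 and Col12a1 above it. Against 5C, 4 were higher and 2 lower, and the number higher was 0 without 5C-E B, 1 without 5C A or 5C B and 2 with the offset for GC content and length. The number lower was 0 without 5C-E B and 1 without 5C B, and that difference was lost for Col8a1 without 5C-E B or 5C B (adjusted p from 0.0553 to 0.103) and for Thbs1 without 5C-E B (adjusted p 0.0779).

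**Figure D5:**
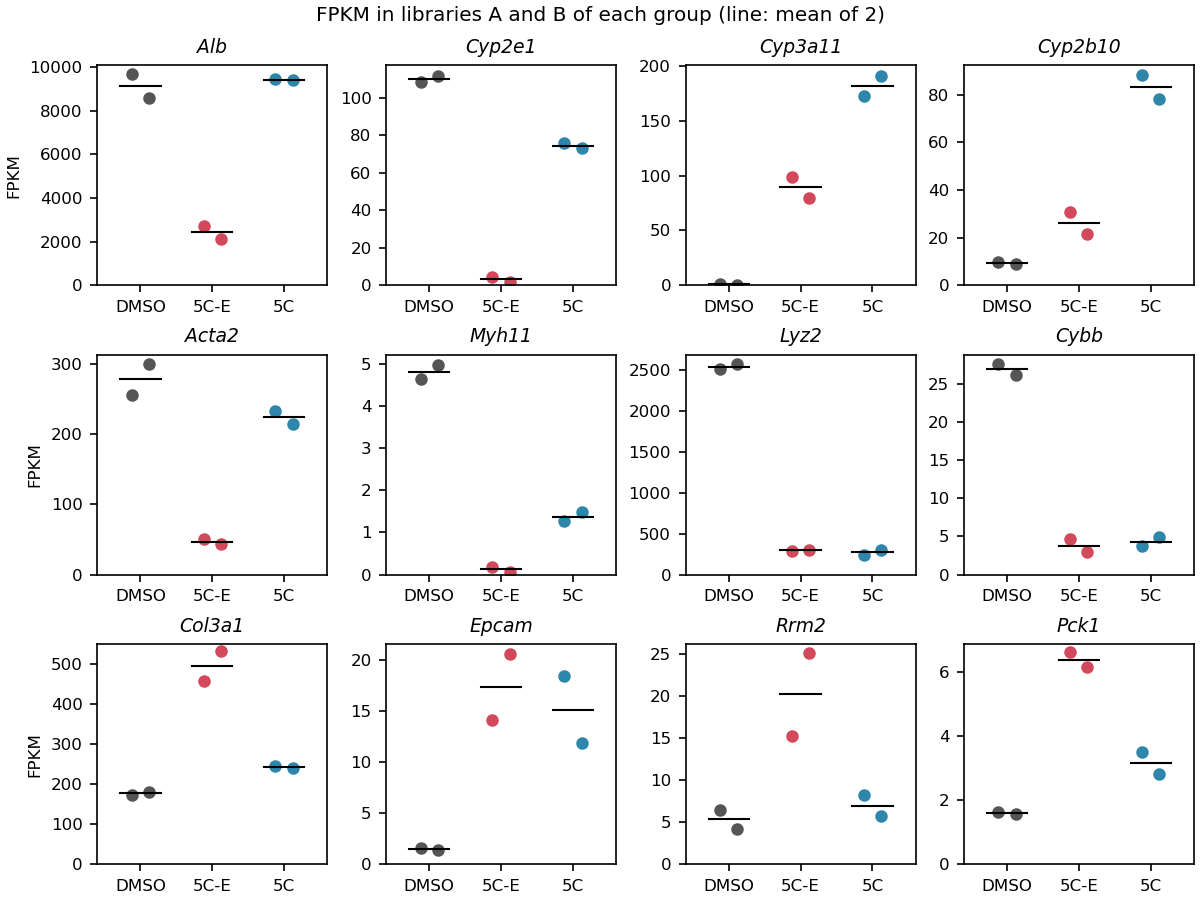
Points are FPKM values of libraries A and B in DMSO, 5C-E and 5C for 12 genes, with a line at the mean of 2, on axes that start at 0. Alb, Cyp2e1, Acta2 and Myh11 are lowest in 5C-E, Lyz2 and Cybb are low in both cocktails, Cyp3a11 and Cyp2b10 are highest in 5C, and Col3a1, Rrm2 and Pck1 are highest in 5C-E.

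Cholangiocyte markers rose in 6 of 12 (median 1.56), and the median of 5C against the same DMSO libraries was 1.42. Epcam, an epithelial adhesion protein, stood at 1.63 and 1.39 FPKM in DMSO, 14.2 and 20.6 FPKM in 5C-E and 18.4 and 11.9 FPKM in 5C (log2 fold change 3.38, adjusted p = 0.0054). The tight junction gene Cldn7 was at 0.645 and 0.626 FPKM in DMSO, 4.65 and 8.25 FPKM in 5C-E and 7.02 and 3.68 FPKM in 5C (log2 fold change 3.19, adjusted p = 0.0073). Cldn4, another claudin, was at 1.93 and 1.85 FPKM in DMSO, 12.4 and 24.9 FPKM in 5C-E and 16.3 and 9.41 FPKM in 5C (log2 fold change 3.15, adjusted p = 0.017). In each the DMSO libraries were the lowest, and the 5C-E libraries overlapped with 5C. Krt19, a keratin of bile ducts, had 68 and 70.5 FPKM in DMSO and 85 and 113 FPKM in 5C-E (log2 fold change 0.37, adjusted p = 0.34). The spread between libraries was wide, and the call was lost for Epcam without DMSO A or DMSO B (adjusted p from 0.0585 to 0.0741), for Cldn7 without DMSO A, DMSO B or 5C-E B (adjusted p from 0.0694 to 0.0793) and for Cldn4 without DMSO A, DMSO B or 5C-E B (adjusted p from 0.140 to 0.147). The number that rose was 2 without DMSO A or DMSO B and 3 without 5C-E B. Between 5C-E and 5C edgeR called 0 of the 12, with 1 lower at an unadjusted p under 0.05, and DESeq2 called 0.

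Endothelial markers were mostly near the floor, and 1 rose and 2 fell of 18 tested (median -0.05). Stab1 and Fcgr2b, which fell, are also genes of macrophages. Stab1 was at 76.2 and 78.4 FPKM in DMSO, 8.66 and 12.6 FPKM in 5C-E and 4.71 and 5.67 FPKM in 5C (log2 fold change -3.01, adjusted p = 3.1e-07). Fcgr2b was at 20.7 and 22.4 FPKM in DMSO, 6.67 and 6.10 FPKM in 5C-E and 2.77 and 2.98 FPKM in 5C (log2 fold change -1.90, adjusted p = 1.4e-06). The defining genes Pecam1 and Cdh5 had at most 36 counts in any of the 4 libraries. Kdr, the VEGF receptor, had 11.4 and 11.6 FPKM in DMSO, 23 and 21.2 FPKM in 5C-E and 10.4 and 9.08 FPKM in 5C (log2 fold change 0.80, adjusted p = 0.032) and was higher than in 5C (log2 difference 1.11, adjusted p = 0.0099), a call that was lost for Kdr without any 1 of the 4 cocktail libraries (adjusted p from 0.0569 to 0.151). Sox17 was at 0.252 and 0.464 FPKM in DMSO and 1.63 and 4.25 FPKM in 5C-E (log2 fold change 2.90, adjusted p = 0.048), and its call was lost without DMSO A, DMSO B or 5C-E B (adjusted p from 0.163 to 0.409) and by DESeq2 (adjusted p = 0.284).

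Cell cycle genes rose in 6 of 30 (median 0.73, against -0.22 in 5C, with the same DMSO libraries). Rrm2, which makes deoxynucleotides for DNA synthesis, stood at 6.47 and 4.21 FPKM in DMSO, 15.3 and 25.1 FPKM in 5C-E and 8.22 and 5.72 FPKM in 5C (log2 fold change 1.77 ± 0.26 (SE), adjusted p = 1.6e-04). Kif20a, a kinesin of cell division, was at 0.976 and 0.947 FPKM in DMSO, 3.25 and 3.86 FPKM in 5C-E and 1.54 and 1.10 FPKM in 5C (log2 fold change 1.74, adjusted p = 0.0011). The mitotic cyclin Ccnb2 was at 3.45 and 4.13 FPKM in DMSO, 12.9 and 12.3 FPKM in 5C-E and 6.79 and 7.42 FPKM in 5C (log2 fold change 1.59, adjusted p = 1.7e-04). Ccnb1, its relative, was at 1.46 and 0.928 FPKM in DMSO, 3.06 and 4.66 FPKM in 5C-E and 1.91 and 1.57 FPKM in 5C (log2 fold change 1.54, adjusted p = 0.0014). Their 5C-E libraries lay above all DMSO and 5C libraries. Without DMSO B the call on Ccnb1 was lost (adjusted p = 0.053). Ccnd1, the cyclin of entry into the cycle, had 21.3 and 18.8 FPKM in DMSO and 10.9 and 13.5 FPKM in 5C-E (log2 fold change -0.86, adjusted p = 0.025). Pcna had 22.6 and 23 FPKM in DMSO and 20.3 and 20.8 FPKM in 5C-E (log2 fold change -0.29, adjusted p = 0.41). Against 5C, 8 of 30 were higher in 5C-E, among them Rrm2 (log2 difference 1.47, adjusted p = 0.003), and that number was 1 without 5C-E B, 3 without 5C A and 2 without 5C B. It was not called for Rrm2 without 5C-E B or 5C B (adjusted p from 0.0905 to 0.122). With every library kept, the number of cell cycle genes higher than in 5C was 13 by DESeq2 and 11 with the offset for GC content and length. It was 3 by limma on log2(FPKM + 1). Which cells of the culture expressed these genes cannot be told apart in bulk RNA.

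Across all genes, 5C-E differed from 5C in 390 genes (1.96%), of which 130 were higher (0.654%) and 260 lower (1.31%). The number was 138 without 5C-E B, 201 without 5C A and 196 without 5C B, with 26, 38 and 40 genes higher. The comparison of 5C with DMSO, which shares the DMSO libraries, called 905 genes (4.55%), 331 higher (1.66%) and 574 lower (2.89%). Of the 479 genes above DMSO in 5C-E, 73 were also higher than in 5C, 5 were lower and 401 were not called between the cocktails. Of the 731 below DMSO, 148 were also lower than in 5C, 10 were higher and 573 were not called. A further 47 genes were higher and 107 lower than in 5C without a call against DMSO.

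Genes highest or lowest in 5C-E of all 3 groups were counted last. All counts in this paragraph took genes with a mean of at least 5 FPKM in any of the 3 groups. Symbols of predicted models were left out. With at least 5 FPKM, 44 genes were higher than in DMSO and in 5C, and they included Sparcl1, Ecel1, Tnfrsf9, A2m and Col15a1. Alpl, alkaline phosphatase, was among them at 1.12 and 1.38 FPKM in DMSO, 11.9 and 16.2 FPKM in 5C-E and 4.23 and 2.61 FPKM in 5C (log2 fold change 3.35, adjusted p = 1.5e-06). So was Ndufa4l2, a mitochondrial protein induced by low oxygen, at 31.6 and 24.8 FPKM in DMSO, 119.9 and 155 FPKM in 5C-E and 50.1 and 48.2 FPKM in 5C (log2 fold change 2.14, adjusted p = 5.2e-05). Alpl and Ndufa4l2 are named after their values were seen. The difference from 5C was not called for Ndufa4l2 without 5C-E B, 5C A or 5C B (adjusted p from 0.0905 to 0.133) and for Col15a1 without 5C-E B, 5C A or 5C B (adjusted p from 0.0758 to 0.215), and with the offset for GC content and length Col15a1 fell short of the fold threshold. Another 102 genes were lower than in both, and these included Cyp2e1, Akr1c6, Pon1, Mug2, Hpd, Tat, Gnmt, Tdo2, Gys2, Apoa2 and Alb on the hepatocyte side and Actg2, Cnn1 and Acta2 on the contractile side. The difference from 5C was not called for Cnn1 without 5C-E B (adjusted p 0.0652). Only 9 genes lay below DMSO and above 5C, namely Ms4a7, Parvg, Fcgr2b, Cfp, Havcr2, Siglec1, Pf4, Hk3 and Sdc3, several of them genes of macrophages, and the difference from 5C was lost for Fcgr2b without 5C A (adjusted p 0.0646).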

How the data were processed

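The authors aligned paired-end reads and deposited 2 tables, whole-number counts per gene, not normalized, and FPKM per gene, which the authors scaled by gene length and total count. Per the labels, the submitters' processing notes name Subread, featureCounts and DESeq2 without versions and the build GRCm39. How strand was handled in counting is not given in the sources used here, so overlapping and antisense genes may not be told apart. The columns name groups but not sample numbers, and 0 columns of per-sample values were left unused.

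The deposited counts were tested with edgeR 4.0.16 in R 4.3.3 (TMM, filterByExpr with a minimum count of 10, glmQLFit and glmQLFTest), with all 13 libraries of 7 groups in 1 fit of group means, 6 residual degrees of freedom and a common BCV (biological coefficient of variation) at 0.261. DESeq is named in the methods of the study, so DESeq2 1.42.0 served as an alternative, as did limma 3.58.1 on log2(FPKM + 1) and log2(FPKM + 0.1). The code was tested on simulated data. Adjusted p-values come from edgeR with Benjamini-Hochberg adjustment over 19884 of 27141 genes, and levels are FPKM. The SE is the log2 fold change divided by the square root of F. A gene at 0 in a group was set against a floor of 3 counts per library, which covers counting error only. Positions, GC content and promoters came from GENCODE vM39 (26905 gene identifiers matched), and list members were matched by symbol, then by identifier. Figures were drawn with matplotlib 3.10.9.

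Genes were named by a rule: among called genes with non-overlapping FPKM, a mean of at least 5 FPKM in the higher group and no predicted model, the 12 largest changes in each direction, and in each list up to 4 called members in each direction and uncalled members with a mean of at least 10 FPKM. The comparison, the lists and the rule were chosen with earlier results of these data known. Alternatives were total-count scaling, other filters, tests and sets of libraries, an offset for GC content and length, other call rules, and each library left out in turn, of which leaving out the 5C libraries was chosen after seeing the data. A few genes that the rule names, and 1 promoter, are not reported here.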

Additional observations from a re-analysis of the deposited data

How the results depend on the processing

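The 1210 genes called in 5C-E against DMSO numbered between 801 and 1777 over the alternatives other than limma on log2(FPKM + 1), which called 729, and 801 to 975 when 1 library was left out. Those higher (479) numbered 750 with only the DMSO and 5C-E libraries fitted, 290 with limma, 825 at an unadjusted p under 0.05, and 250 to 408 with 1 library left out. Those lower (731) numbered 439 with limma. In these counts limma without a scale is limma on log2(FPKM + 1). On log2(FPKM + 0.1) it called 1078 genes in 5C-E against DMSO, 480 higher and 598 lower. On that scale it called 280 genes against 5C and 819 in 5C against DMSO. All gene counts at an unadjusted p in this paragraph also required a log2 fold change beyond 1. Counts of list members at an unadjusted p elsewhere had no fold threshold. The 390 genes called against 5C numbered 712 with only the DMSO, 5C and 5C-E libraries, 217 with limma, 877 at an unadjusted p, and 138 to 393 with 1 library left out. Of these, the higher (130) numbered 234 without a filter or without a fold threshold, 295 with 3 groups, 64 with limma, 393 at an unadjusted p and 26 to 166 with 1 library left out, and the lower (260) numbered 417, 153 and 484 with 3 groups, limma and an unadjusted p, and 112 to 234 with 1 library left out. For 5C against DMSO (905 genes), limma gave 569 and an unadjusted p 1532, the higher (331) numbered 564 with 3 groups, 191 with limma, 697 at an unadjusted p and 153 to 305 with 1 library left out, and the lower (574) 378 with limma. Scaling by total counts shifted the median log2 fold change of all genes from 0.01 to 0.16 and the share of calls that were higher from 39.6% to 49.0%. Fits without 1 library leave a group with a lone library, which is assumed to vary like the other groups. Of single genes named, Cd14, not called, lay between -0.20 and 0.51 on the log2 scale with 1 library left out. Des, also not called against DMSO (-0.08), lay between -0.26 and 0.11 in the same way, at 0.063 with total counts, at 0.053 with limma on log2(FPKM + 1) and at 0.054 on log2(FPKM + 0.1). No paired analysis was possible because the column names do not carry the replicate numbers of the labels. With 2 libraries a group, a difference without a call is not shown to be absent.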

Other observations

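In 5C-E against DMSO, edgeR called 0 of 18 clock genes and PAR bZIP factors (median -0.54). At an unadjusted p under 0.05 there were 9, with 0 by DESeq2 and 2 with the offset for GC content and length. No share of all genes at an unadjusted p is set beside this count or those below. Of 19 genes of fatty acid and triglyceride synthesis it called 0, with 9 at an unadjusted p under 0.05 and 0 by DESeq2 and 1 with that offset (median -0.12). In that group Lpin1, a phosphatase of triglyceride synthesis, had 16.5 and 14.3 FPKM in DMSO and 9.03 and 8.07 FPKM in 5C-E (log2 fold change -1.0, adjusted p = 8.9e-04), at the fold threshold, and passed it without DMSO B or 5C-E A. Gpam, the first enzyme of the pathway, had 28.1 and 26.4 FPKM in DMSO and 17.9 and 15.8 FPKM in 5C-E (log2 fold change -0.84, adjusted p = 0.0067), while Fasn, fatty acid synthase, had 13.8 and 13 FPKM in DMSO and 18.1 and 23.4 FPKM in 5C-E (log2 fold change 0.49, adjusted p = 0.13) and Scd2, a desaturase, 135 and 128 FPKM in DMSO and 191 and 236 FPKM in 5C-E (log2 fold change 0.55, adjusted p = 0.14). Of 17 NRF2 and antioxidant genes edgeR called 0, with 5 at an unadjusted p under 0.05 and 0 by DESeq2 (median -0.08), and Hmox1, heme oxygenase, had 106 and 107 FPKM in DMSO and 65.9 and 73.4 FPKM in 5C-E (log2 fold change -0.75, adjusted p = 0.006). Of 19 cell cycle inhibitors and p53 targets it called 0, with 7 at an unadjusted p under 0.05 and 0 by DESeq2 and 1 with that offset (median -0.25). There Cdkn1a (p21) had 56.5 and 57.3 FPKM in DMSO and 40.9 and 51 FPKM in 5C-E (log2 fold change -0.45, adjusted p = 0.11).

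Genes of the unfolded protein and ATF4 response fell in 2 of 18 (median -0.23). These were Atf3, a stress-induced factor, at 4.57 and 4.93 FPKM in DMSO and 2.22 and 2.27 FPKM in 5C-E (log2 fold change -1.22, adjusted p = 0.0065), and Chac1, which degrades glutathione, at 16.8 and 14.9 FPKM in DMSO and 6.19 and 9.93 FPKM in 5C-E (log2 fold change -1.12, adjusted p = 0.0069). The call was lost for Atf3 without any 1 of the 4 libraries (adjusted p from 0.0521 to 0.0776) and for Chac1 without DMSO A or 5C-E A (adjusted p from 0.104 to 0.170). Interferon response genes rose in 1 and fell in 1 of 21 (median 0.12). Ifi27l2a stood at 297 and 276 FPKM in DMSO, 31.8 and 29.6 FPKM in 5C-E and 17.8 and 27.6 FPKM in 5C (log2 fold change -3.37, adjusted p = 5.9e-06), low in both cocktails like the macrophage markers, and Gbp2, a guanylate-binding protein, at 20.8 and 19.2 FPKM in DMSO and 48.4 and 42.2 FPKM in 5C-E (log2 fold change 1.03, adjusted p = 8.6e-04). The call was lost for Gbp2 without DMSO B or 5C-E A (log2 fold changes from 0.97 to 0.97). Of 8 lymphocyte and granulocyte markers tested out of 16 listed, edgeR called 0, with 1 at an unadjusted p under 0.05 and 0 by DESeq2, and their summed level was at most 6.08 FPKM in the 4 libraries.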
